A study of Mus musculus with 3 samples.

Results

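Delta cells made up 566 of the 12000 cells in the library of dissociated islets from a WT mouse, out of 25524 cells in the 3 libraries of the series. They were chosen by their hormone RNA. A cell was counted as a delta cell when Sst, the somatostatin gene, took at least 5% of its UMIs (unique molecular identifiers, each marking 1 captured RNA molecule) while Ins2 took under 20% and Gcg and Ppy under 5% each. The same library held 8407 beta cells by Ins2 at 20% or more and 2814 alpha cells by Gcg at 15% or more, and 213 cells fell in no class.

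The WT islets, 300 in number, came from 1 adult mouse of the C57/Bl6 strain, and the labels do not say whether it carried a Cre transgene or was given tamoxifen. The 2 mutant libraries came from mice of the same strain with floxed Taf4 and an Ins-Cre-ERT2 transgene, a driver active in beta cells, at 1 week and 5 weeks after tamoxifen, each from 300 islets pooled from 2 mice. In every library live dissociated cells were sorted before 3′ capture, so the counts come from transcript ends. With 1 library per condition there is no spread between animals, and all intervals below are 95% intervals for counting error only.

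The WT mouse is labelled male, but its library held 17357 UMIs of Xist, the RNA of the inactive X chromosome, and 0 UMIs of each of 4 genes on the Y chromosome (Ddx3y among them). Of the delta cells, 429 had an Xist UMI. The mutant libraries held 11 to 17 Xist UMIs and 1349 to 1488 Ddx3y UMIs, so the WT cells differ from the mutant cells in these genes as well as in genotype. The WT library shared 2 cell barcodes with the 1-week library, 0 of them from delta cells, and 33 with the 5-week library, 4 of them from delta cells.

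Delta cells are the somatostatin-secreting endocrine cells of the islet. The peptide they release acts over short distances through inhibitory G protein-coupled receptors on neighbouring alpha and beta cells and so restrains glucagon and insulin release. They share the secretory granule machinery and much of the electrical apparatus of beta cells, and the homeobox factor Hhex is required for their identity in the mouse.

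Sst is a classic target of cAMP signalling, and the sequence just before its transcription start holds the palindromic cAMP response element through which CREB acts. It is shown here because the class was chosen by Sst RNA, together with the matching stretch of Chgb, a granin gene that was also high in these cells. Both run 5′ to 3′, with the element in capitals, and come from RefSeq on build GRCm38.p6. The Sst stretch is chr16:23890845-23891094 on the minus strand, within a gene record that spans 23889573 to 23891342, and the element starts at position -48. The Chgb stretch is chr2:132781392-132781641 on the plus strand, next to a gene record from 132781642 to 132795079, and the element starts at position -72.
Sst: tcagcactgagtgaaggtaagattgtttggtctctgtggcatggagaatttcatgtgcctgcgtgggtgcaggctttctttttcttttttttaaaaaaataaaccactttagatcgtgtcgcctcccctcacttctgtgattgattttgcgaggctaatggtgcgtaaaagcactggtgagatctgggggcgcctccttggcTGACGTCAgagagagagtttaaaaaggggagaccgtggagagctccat
Chgb: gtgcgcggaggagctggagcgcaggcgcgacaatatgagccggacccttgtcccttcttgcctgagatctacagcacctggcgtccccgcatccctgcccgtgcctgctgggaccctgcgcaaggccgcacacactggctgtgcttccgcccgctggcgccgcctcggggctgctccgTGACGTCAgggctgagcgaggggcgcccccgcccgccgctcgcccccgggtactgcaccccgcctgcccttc

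The element, TGACGTCA on either strand, was present in an upstream stretch of 250 bases for 1.77% of the 27025 genes that had such a stretch. Among the 98 genes that were 2-fold or more above both other classes (below), 73 had such a stretch, and 2 of these, Chgb and Irf2bpl, held the element, a share of 2.74%. The homeobox core TAATTA was found for 3 of the 73 genes (4.11%) and for 5.65% of all genes with a stretch. Neither share stood far from that of all genes, and a match of letters does not show that a factor binds there.

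By the values that chose them, the delta cells held 404551 UMIs, of which Sst took 15.4%. Across single cells the Sst share had a median of 15.7%, with 5% of cells at or under 7.75%, 5% at or over 23.8% and a maximum of 45.4%. Of the 621 cells with Sst at 5% or more, 53 were set aside by the Ppy limit, 2 by the Ins2 limit and 0 by the Gcg limit. The threshold fell in a thinly filled range, since only 19 cells that met the other limits had Sst at 2% to 5% and 26 had it at 5% to 7.5%.

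The cell nearest above the threshold had 60 Sst UMIs of 1179 (5.09%) and 4 UMIs of Rbp4, and the nearest below had 37 of 744 (4.97%) and also 4 of Rbp4. The next cell inside, at 5.17%, had 0 Rbp4 UMIs and 113 UMIs of Ctrb1, the acinar chymotrypsinogen gene. Sst in other cells was low, at 0.0269% of beta-cell UMIs and 0.0464% of alpha-cell UMIs, with a maximum of 7.42% in any beta cell and 0.529% in any alpha cell. The 2 cells set aside by the Ins2 limit are the ones that passed the Sst limit with Ins2 at 20% or more. The authors had removed WT cells with high levels of a pair of hormones before deposit, which cannot be told apart here from a natural gap between the classes.

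**Figure D1:**
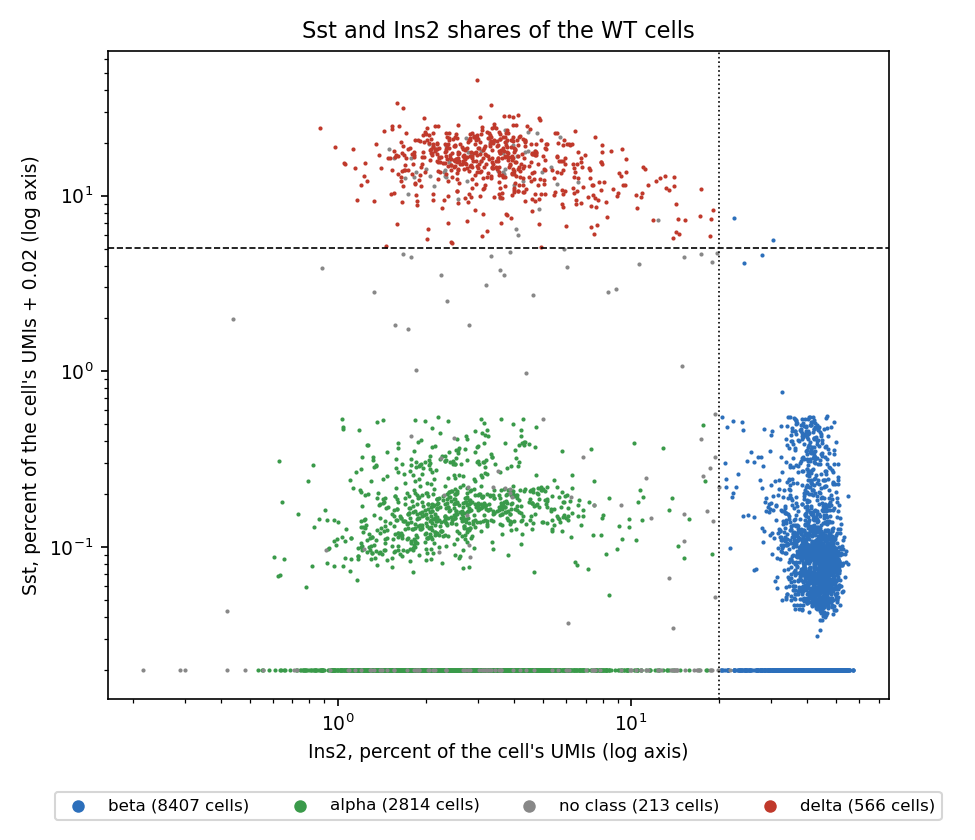
Each point is 1 WT cell, placed by the Ins2 share (x axis) and the Sst share plus 0.02 (y axis) of its UMIs in percent, both on log axes, and coloured by class; the dashed and dotted lines are the limits of 5% Sst and 20% Ins2. The 566 delta cells form a group above the Sst limit, and 19 cells that met the other limits lie between 2% and 5%.

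Delta cells were shallowly sampled. They held a median of 626.5 UMIs and 313 genes per cell, with 5% of cells at or under 510 UMIs and a maximum of 2036, against medians of 1664 UMIs in beta cells and 765 in alpha cells. No WT cell had under 500 UMIs. The median mitochondrial share was 4.59% in delta cells, 3.32% in beta cells and 4.09% in alpha cells.

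Sst was not the only peptide hormone of these cells. Iapp, the amylin precursor known from beta cells, took 5.58% of delta-cell UMIs, between 8.64% in beta cells and 0.774% in alpha cells. Pyy, the peptide YY gene, took 4.25% of delta-cell UMIs, 1.91% in alpha cells and 0.0386% in beta cells, and was found in 565 of the 566 delta cells. By these shares of all UMIs, hormones included, Iapp in delta cells lay between beta and alpha cells and Pyy above both. Counted per cell, Iapp had 39.9 UMIs in delta cells, 168 in beta cells and 6.61 in alpha cells.

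Ppy, the pancreatic polypeptide gene, took 1.46% of delta-cell UMIs although the selection capped it at 5% per cell, and 81.3% of delta cells had a UMI of it. In alpha cells, where no cap was set, it took 0.985%, and in beta cells 0.0203%. The selection therefore fixed the upper end of the Ppy values, and the 53 cells set aside by it are not part of them. Of the other peptides, Npy had 25 UMIs in delta cells and Ghrl, the ghrelin gene, 1.

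Ins2 was detected in all 566 delta cells and took 4.22% of their UMIs, against 2.90% in alpha cells and 43.7% in beta cells. Counted per cell, delta cells held 30.2 Ins2 UMIs and alpha cells 24.8, and for Ins1 the values were 9.89 and 8.83. The summed 10 acinar digestive enzyme genes gave 10.5 UMIs per delta cell, 9.67 per beta cell and 9.36 per alpha cell, a like number in cells of very different depth. Gcg took 0.331% of delta-cell UMIs.

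Together the 7 hormone genes Ins1, Ins2, Gcg, Sst, Ppy, Pyy and Iapp took 32.6% of UMIs in delta cells, 67.9% in beta cells and 41.5% in alpha cells. All other genes are therefore given as a level, the UMIs of a gene summed over the cells of a class per 1000000 UMIs of genes other than these 7, written as CPM. A log2 ratio compares the level in delta cells with that in another class, its range in parentheses is the counting interval, and a class with 0 UMIs was set to 3 UMIs. Genes with a mean level of at least 50 CPM over the classes compared were taken into account, and a gene was counted as higher or lower at 2-fold.

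On this scale 219 of 3118 genes (7.02%) were higher in delta than in beta cells and 280 (8.98%) were lower. Against alpha cells 269 of 2811 genes (9.57%) were higher and 66 (2.35%) lower. The median log2 ratio of all genes was -0.09 against beta cells and 0.23 against alpha cells. With hormone UMIs kept in the total, every ratio over beta cells rises by 1.07 and every ratio over alpha cells by 0.21, and the counts become 763 higher and 28 lower against beta cells, and 244 higher and 27 lower against alpha cells. With the ratios centred on their median the counts are 256 higher and 234 lower against beta cells, and 163 higher and 99 lower against alpha cells.

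Both other classes were exceeded 2-fold by 98 of 2919 genes (3.36%), and 36 genes (1.23%) were 2-fold below both. These genes were chosen by the ratios that describe them, and a gene that is low in both other classes could pass the minimum level through its delta level alone, so their ratios and intervals are a description.

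**Figure D2:**
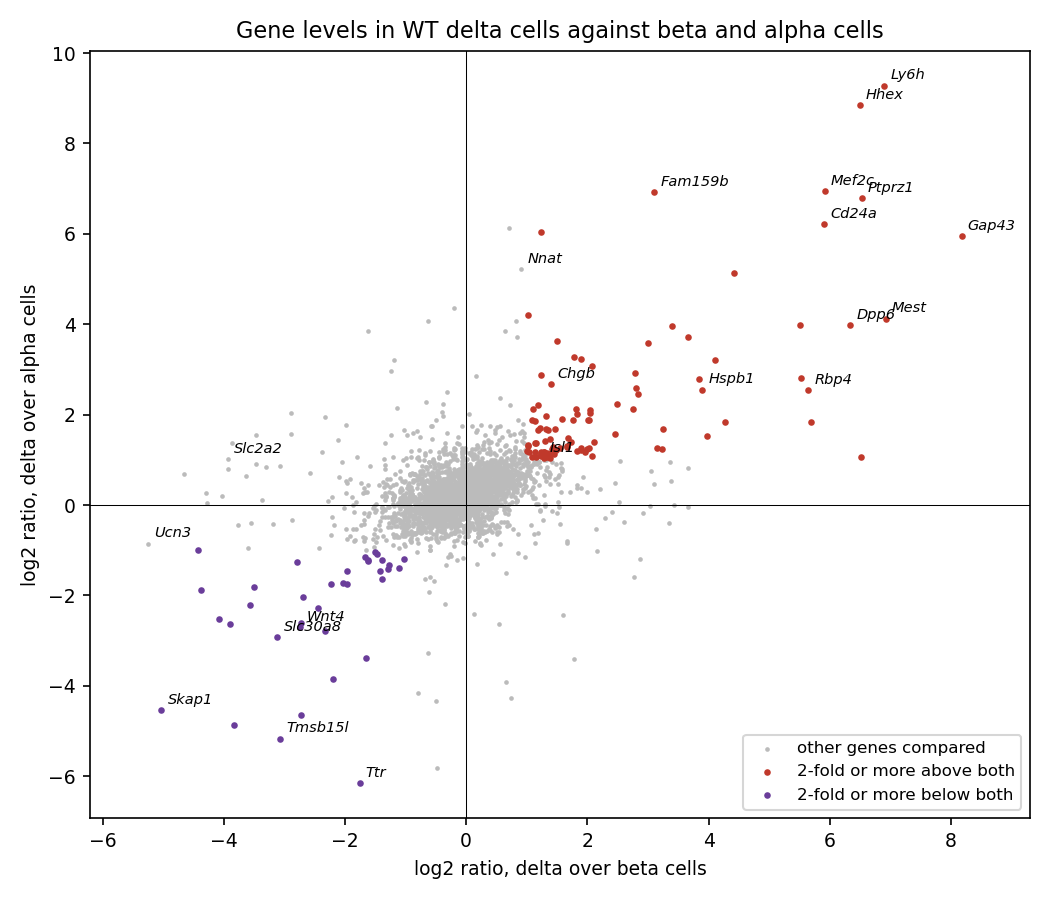
Each point is 1 of 2919 genes, placed by its log2 ratio of delta over beta cells (x axis) and of delta over alpha cells (y axis) in the WT library; red marks the 98 genes 2-fold or more above both classes and purple the 36 genes 2-fold or more below both. Hhex, Ly6h, Ptprz1, Mef2c, Gap43 and Cd24a lie far from the bulk at the upper right, and Skap1, Tmsb15l and Ttr at the lower left.

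The markers given for delta cells bore out the label. Rbp4, which encodes the plasma retinol carrier, stood at 9942 CPM in delta cells, 199 in beta cells and 1715 in alpha cells. Its log2 ratio was 5.64 (5.54 to 5.75) over beta and 2.54 (2.46 to 2.62) over alpha cells. After each cell was thinned to 500 UMIs, 89.2% of delta cells had an Rbp4 UMI, against 2.91% of beta cells and 36.8% of alpha cells (92.4%, 8.52% and 52.0% before thinning). The 500 UMIs, here and below, include hormone UMIs (32.6% of UMIs in delta, 67.9% in beta and 41.5% in alpha cells). A thinned beta cell thus keeps fewer UMIs of other genes, which lowers the share of beta cells with a UMI. Against only the 511 beta cells with under 1000 UMIs, which are closer in depth to delta cells, the ratio of Rbp4 was 4.29.

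Hhex, the homeobox factor of delta-cell identity, had 89 UMIs in delta cells, 19 in beta cells and 1 in alpha cells, or 326, 3.62 and 0.711 CPM. Its log2 ratio was 6.5 (5.77 to 7.29) over beta and 8.84 (6.33 to 14.16) over alpha cells. At 500 UMIs per cell it was seen in 10.6% of delta cells, 0.0476% of beta cells and 0.0355% of alpha cells (14%, 0.226% and 0.0355% before thinning). Hhex lies on chromosome 19 from 37434841 to 37440731 and Rbp4 on the same chromosome from 38116620 to 38125321 (GRCm38.p6).

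Fam159b, named Shisal2b in RefSeq, stood at 1041 CPM in delta cells, 121 in beta cells and 8.53 in alpha cells. Unlike Hhex it was well measured in beta cells too, so its log2 ratio was 3.1 (2.90 to 3.31) over beta and 6.93 (6.10 to 7.90) over alpha cells. Of the further markers, Tspan8, a tetraspanin, stood at 418, 24.2 and 45.5 CPM. Ptprz1, a receptor-type phosphatase, stood at 158, 1.71 and 1.42, and Spock3, a matrix proteoglycan, at 95.3, 0.761 and 0.711.

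Ghsr encodes the ghrelin receptor, through which ghrelin acts on delta cells. It had 5 UMIs in delta cells and 0 in both beta and alpha cells, which with the floor of 3 UMIs gives log2 ratios of 5.01 over beta and 3.1 over alpha cells. The lower limits of the counting intervals were 4.14 and 2.24. All 7 delta markers in the table had a UMI in delta cells, but 6 also did in beta cells and 6 in alpha cells.

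The gene furthest above both classes was Ly6h, a GPI-anchored protein known to modulate nicotinic receptors. It had 241 UMIs in delta cells, 39 in beta cells and 2 in alpha cells (884, 7.42 and 1.42 CPM). Its log2 ratio was 6.90 (6.40 to 7.42) over beta and 9.28 (7.41 to 12.33) over alpha cells, and 5.71 against the beta cells with under 1000 UMIs. Against those beta cells the ratios of 16 of the 20 genes furthest above both classes were smaller by over 1.5 times, and all 20 were at least 2-fold, the lowest log2 ratio being 1.93. Cd24a, a mucin-like GPI-anchored protein, stood at 583, 9.71 and 7.82 CPM, and Folr1, a folate receptor, at 407, 58.4 and 67.6.

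Gap43, the growth cone protein of axons, had 60 UMIs in delta cells, 4 in beta cells and 5 in alpha cells. Its log2 ratio over beta cells, 8.18 (6.74 to 10.10), was the highest of all genes compared. Basp1, which shares its membrane location, stood at 191 CPM in delta cells and 2.09 in beta cells, but its ratio over alpha cells was only 1.07 (0.57 to 1.54). Dpp6, an auxiliary subunit of A-type potassium channels, had log2 ratios of 6.33 (5.53 to 7.22) and 3.97 (3.26 to 4.74). The 511 beta cells with under 1000 UMIs held 0 UMIs of Gap43, which with the floor of 3 UMIs gives a ratio of 3.70.

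Mef2c, a MADS-box transcription factor of muscle and neurons, had 72 UMIs in delta cells, 23 in beta cells and 0 in alpha cells, which gives a log2 ratio of 5.91 (5.22 to 6.66) over beta cells. Over alpha cells the ratio was 6.95 with the floor of 3 UMIs, and the lower limit of its counting interval was 6.62. Against the beta cells with under 1000 UMIs, which held 4 UMIs of it, the ratio was 3.55. Ehf, an epithelial ETS factor, had log2 ratios of 5.52 and 2.80. Mest, an imprinted gene, stood at 161, 1.33 and 9.25 CPM. The leading genes were completed by Fabp5, a fatty acid carrier, at 326, 15.2 and 9.25 CPM, by the secreted proteins Cyr61, Ambp and Nbl1, by Cd164l2 and Caly, by Rgs9, a regulator of G protein signalling, and by the small heat shock protein gene Hspb1.

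**Figure D3:**
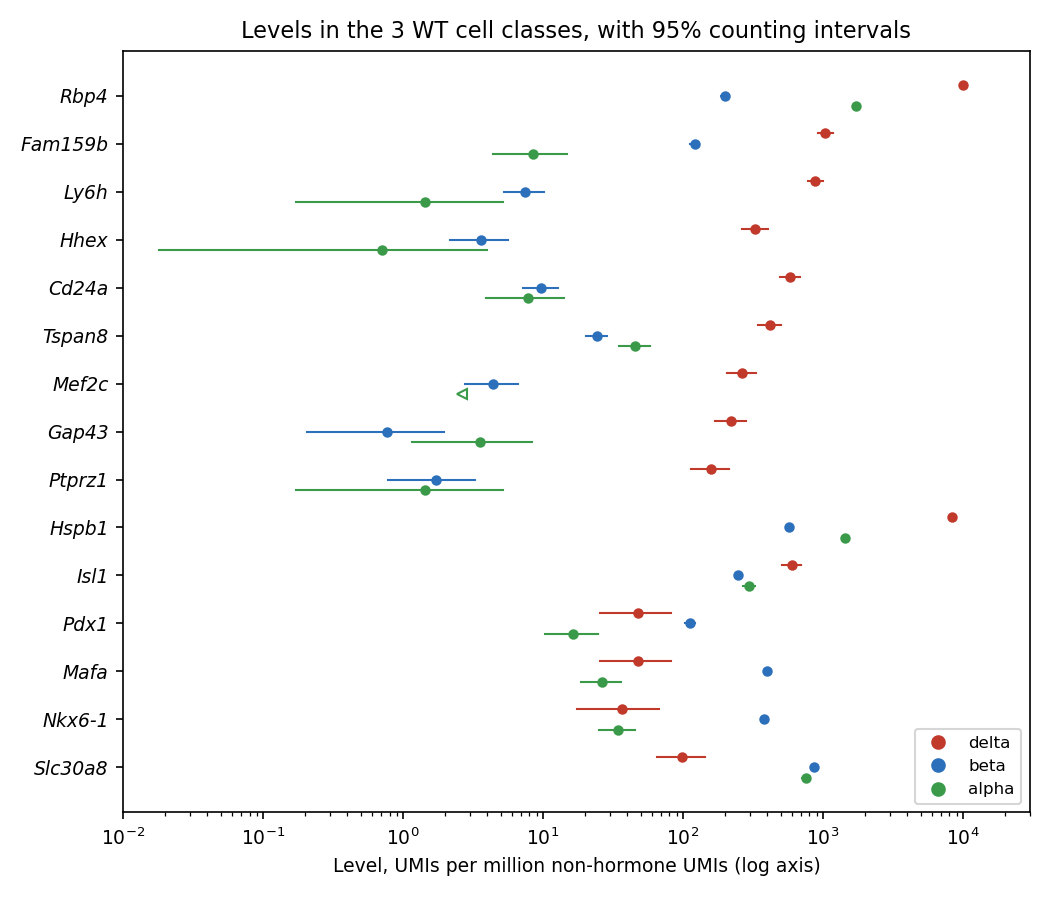
Levels of 15 genes (y axis) in WT delta, beta and alpha cells, in CPM (UMIs per 1000000 non-hormone UMIs) on a log axis; points are values over all cells of a class, lines the 95% counting intervals, and open triangles the upper interval bound of a class with 0 UMIs. Rbp4, Fam159b, Ly6h, Hhex, Cd24a, Tspan8, Mef2c, Gap43 and Ptprz1 were highest in delta cells, and Mafa and Nkx6-1 in beta cells.

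Among 38 islet transcription factors, 18 could be compared with beta cells, of which 4 were higher and 5 lower in delta cells, and 18 with alpha cells, of which 6 were higher and 3 lower. Of all genes 7.02% were higher and 8.98% lower than in beta cells, and 9.57% higher and 2.35% lower than in alpha cells. Beside these shares the listed genes, here and in the groups below, are described by counts with no test. With hormone UMIs in the total 10 of the 18 factors were higher and 2 lower than in beta cells, and with centred ratios 4 were higher than in alpha cells. Isl1, a LIM homeobox factor of all islet endocrine cells, stood at 601 CPM in delta cells, 248 in beta cells and 295 in alpha cells. Its log2 ratios were 1.28 (1.04 to 1.51) and 1.03 (0.76 to 1.29), so that it was counted above both classes. Etv1 stood at 513, 50.2 and 671 CPM, near the alpha-cell level and far above that of beta cells.

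Beta-cell factors were low. Nkx6-1 had 10 UMIs in delta cells (36.7 CPM) against 378 in beta cells, a log2 ratio of -3.37 (-4.43 to -2.48). Mafa stood at 47.7 CPM against 401 in beta cells. Irx1 and Irx2, homeobox factors of alpha cells, had 2 and 4 UMIs in delta cells, or 7.33 and 14.7 CPM against 141 and 122 in alpha cells.

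Pdx1, a pancreatic and beta-cell factor also known from delta cells, was intermediate, at 47.7 CPM (13 UMIs) in delta cells, 112 in beta cells and 16.4 in alpha cells. Its log2 ratio was -1.24 (-2.15 to -0.45) over beta and 1.54 (0.44 to 2.58) over alpha cells. Neurod1 and Nkx2-2, factors of all islet endocrine cells, were the other 2 factors counted lower than in beta cells. Insm1, Meis2 and Mlxipl, the last encoding the glucose-responsive factor ChREBP, were higher than in alpha cells.

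Receptors were rarely captured. Of 34 receptor and signalling genes in the table, 10 could be compared with beta cells, of which 5 were higher and 1 lower (7.02% and 8.98% of all genes), and 7 with alpha cells, of which 4 were higher and 1 lower (9.57% and 2.35% of all genes). Rgs2 and Rgs4, which damp G protein signalling, stood at 484 and 290 CPM in delta cells. Rgs2 had log2 ratios of 1.59 (1.31 to 1.85) and 1.91 (1.58 to 2.24), and Rgs4 of 3.23 (2.83 to 3.63) and 1.24 (0.83 to 1.63).

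Ramp1, the partner of the CGRP receptor, was also counted above both classes, at 216 CPM. Gria2, an AMPA receptor subunit, stood between the classes, at 191 CPM in delta cells, 42.8 in beta cells and 386 in alpha cells. Gipr, the receptor of the incretin GIP, was the receptor counted lower than in beta cells, with 4 UMIs and a log2 ratio of -2.61. For Glp1r, Lepr and Cckar 0 UMIs were found in delta cells, which at this depth allows up to 3 UMIs, or 11 CPM, each.

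Of 14 further genes listed in the literature as delta-cell genes and present in the table, 4 reached the minimum level. Of these 3 were higher than in beta cells and all 4 higher than in alpha cells (7.02% and 9.57% of all genes). A gene low in the other class reaches that minimum through its delta level alone, so these counts are partly set by it. Pcp4, a calmodulin regulator, stood at 227, 61.3 and 24.2 CPM, and Arg1, the urea cycle arginase, at 246, 4.76 and 69.0. Frzb, a secreted Wnt antagonist, was at 205 CPM in delta cells and 235 in beta cells, a log2 ratio of -0.20 (-0.61 to 0.19), and at 9.96 in alpha cells.

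Of the channels, pumps and their subunits 16 could be compared with beta cells, of which 4 were higher and 3 lower (7.02% and 8.98% of all genes), and 14 with alpha cells, of which 4 were higher and 0 lower (9.57% and 2.35% of all genes). With hormone UMIs in the total 10 were higher and 1 lower than in beta cells, and with centred ratios 2 were higher than in alpha cells. The genes of both KATP channel subunits were higher than in beta and alpha cells, one of them by 2-fold. Kcnj11 (23 UMIs) had log2 ratios of 1.24 and 1.13, and Abcc8 (166 UMIs) of 0.69 (0.46 to 0.92) and 0.75 (0.49 to 1.01). Fxyd3 and Fxyd6, regulators of the sodium pump, were above both classes.

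Trpm5, a calcium-activated cation channel, had 5 UMIs in delta cells and a log2 ratio of -4.65 over beta cells. Atp2a2, the SERCA2 calcium pump, stood at 290 CPM in delta cells against 1134 in beta cells and 206 in alpha cells. With hormone UMIs in the total its log2 ratio over beta cells of -1.97 would be less negative by the common shift of 1.07, without turning.

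Granule genes had no common direction. Of 17 compared with beta cells 2 were higher and 3 lower (7.02% and 8.98% of all genes), with a median log2 ratio of 0.04, and of 15 compared with alpha cells 5 were higher and 2 lower (9.57% and 2.35% of all genes), with a median of -0.16. With hormone UMIs in the total 9 were higher and 2 lower than in beta cells, with a median of 1.12, and the median over alpha cells turns to 0.05. With centred ratios 3 were higher and 4 lower than in alpha cells. Chgb, the chromogranin B gene whose upstream stretch is printed above, stood at 3623 CPM in delta cells, 1367 in beta cells and 565 in alpha cells. Its log2 ratios were 1.41 (1.31 to 1.5) and 2.68 (2.54 to 2.82), while Chga, the chromogranin A gene, had a ratio of -1.08 over beta cells.

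Slc30a8, the zinc transporter of insulin granules, stood at 99.0 CPM in delta cells, 859 in beta cells and 753 in alpha cells. Its log2 ratios were -3.12 (-3.72 to -2.57) and -2.93 (-3.54 to -2.38), which places it among the 10 genes furthest below both classes. Pcsk1, the prohormone convertase of beta cells, had 16 UMIs in delta cells and a log2 ratio of -2.88 over beta cells. Pcsk2, the other convertase, stood at 1863, 2137 and 3479 CPM, within 2-fold of both.

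Among exocytosis genes 16 could be compared with beta cells, of which 2 were higher and 6 lower (7.02% and 8.98% of all genes), and 13 with alpha cells, of which 2 were higher and 1 lower (9.57% and 2.35% of all genes). The median over beta cells of -0.44 turns to 0.63 with hormone UMIs in the total, where 5 were higher and 2 lower. Over alpha cells the median of 0.19 turns to -0.04 with centred ratios, where 0 were higher. Cplx2, a complexin, was above both classes, with log2 ratios of 1.48 and 1.22. Cadps, a priming factor of dense-core vesicles, was below both, with 7 UMIs in delta cells and log2 ratios of -2.44 (-3.76 to -1.39) and -2.28 (-3.61 to -1.20).

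Of 13 adhesion and synapse genes compared, 6 were higher and 2 lower than in beta cells (7.02% and 8.98% of all genes), and 6 were higher and 1 lower than in alpha cells (9.57% and 2.35% of all genes). With hormone UMIs in the total 9 were higher than in beta cells, and with centred ratios 5 were higher than in alpha cells. Gap43, Ptprz1, Epcam and the N-cadherin gene Cdh2 were above both classes, and Cadm1 and Ncam1 above beta cells alone. Gjd2, the connexin 36 gene that couples beta cells, had 7 UMIs in delta cells and a log2 ratio of -3.19 over beta cells.

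Glucose metabolism genes contained 0 that were higher and 3 that were lower than in beta cells of 11 compared (7.02% and 8.98% of all genes). Slc2a2, the GLUT2 gene, stood at 40.3 CPM in delta cells against 615 in beta cells, and G6pc2 at 84.4 against 1284, a log2 ratio of -3.93 for both. The remaining glycolytic genes compared lay within 2-fold of beta cells, apart from Gpd2 at -1.52. The median of -0.45 turns to 0.63 with hormone UMIs in the total, where 4 were higher and 2 lower.

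Genes of ER folding and translocation were lower than in beta cells for 10 of 29 compared and higher for 0 (8.98% and 7.02% of all genes). Their median log2 ratio of -0.75 turns to 0.32 with hormone UMIs in the total, where 1 was lower and 1 higher, so that their direction against beta cells depends on the scale. Manf, a secreted ER stress factor, stood at 631 CPM in delta cells and 1778 in beta cells. Against alpha cells 3 of 25 were higher, 1 was lower and the median was 0.41. With centred ratios 0 were higher, 1 was lower and the median was 0.18. Ero1lb, the oxidase of insulin folding, was lower than in both, at 58.7, 1266 and 117 CPM.

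Ribosomal protein genes stood at 123336 CPM in sum in delta cells, 112096 in beta cells and 173325 in alpha cells. Against alpha cells 76 were compared, 1 was counted lower and 0 higher, and the whole group shifted slightly, with log2 ratios from -1.21 to -0.0038 and a median of -0.50, beside a median of 0.23 for all genes. Against beta cells 0 of 77 were counted and their median was 0.14, or 0.23 with centred ratios. With hormone UMIs in the total that median was 1.21, and 59 of the 77 were counted higher. The median over alpha cells stayed negative on each scale computed, between -0.73 and -0.29. The 13 mitochondrially encoded genes were all within 2-fold of both classes.

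Oxidative stress genes differed singly. Gpx3, a secreted glutathione peroxidase, stood at 590 CPM in delta cells, 87.0 in beta cells and 1793 in alpha cells. Mt1, a metallothionein gene, was at 293 CPM against 2145 in beta cells, a log2 ratio of -2.87, though reads could be shared with its similar copy Mt2. Of 5 antigen presentation genes compared, H2-T23 was above both classes.

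Of 13 immediate early genes compared, 8 were higher and 0 lower than in beta cells (7.02% and 8.98% of all genes). Against alpha cells 6 were higher, 0 were lower (9.57% and 2.35% of all genes) and 7 were within 2-fold, and the lowest log2 ratio was -0.84. With centred ratios 3 were higher and 1 lower than in alpha cells. With hormone UMIs in the total all 13 were higher than in beta cells and 7 higher than in alpha cells. Jun, a subunit of AP-1, stood at 2439 CPM in delta cells, 688 in beta cells and 1064 in alpha cells, and Egr1, a zinc finger factor, at 968, 442 and 373. The median log2 ratios of the 13 genes were 1.13 and 0.94.

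Chaperone genes were grouped after their values were seen, by the symbols of the heat shock protein, DnaJ and Bag families. Of 38 such genes compared with both classes 9 were above both, 0 were below both and 29 were neither, where 3.36% of all genes were above both. The 9 genes were Hspb1, Hspa1a, Hspa1b, Hsph1, Dnajb1, Dnaja1, Dnaja4, Hsp90aa1 and Bag3. Hspb1 stood at 8416 CPM in delta cells, 568 in beta cells and 1432 in alpha cells, with log2 ratios of 3.89 (3.81 to 3.97) and 2.55 (2.47 to 2.64). Hspa1a stood at 3407, 834 and 1419 CPM and Hspa1b, a near-identical copy whose reads may be split uncertainly, at 2915, 916 and 1181.

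The levels of Hspb1 and Hspa1a differed widely between the libraries. In the 1-week mutant library the 19 delta cells held a median of 15230 UMIs. There Hspb1 was at 19.8 CPM in delta cells, 8.98 in beta cells and 3.48 in alpha cells, and Hspa1a at 4.94, 68.6 and 4.79. Of the 9 chaperone genes, Hspb1 alone was higher in delta than in beta cells at 1 week. The remaining log2 ratios over beta cells ran from -3.79 (Hspa1a) to -0.08 (Dnaja1), that of Hspa1b (-1.70) being set by the floor. The 1-week delta-cell levels of Hspb1, Hspa1a, Dnajb1 (4.94 CPM) and Bag3 (9.88 CPM) rest on few UMIs, so their ratios are uncertain. Ratios over alpha cells were of both signs, from -2.47 (Dnajb1) to 3.51 (Hspa1b, at 0 CPM in delta cells and set by the floor). In the 5-week library, whose 1062 delta cells held a median of 1138.5 UMIs, Hspb1 was at 8997, 1217 and 2617 CPM. All 9 genes were higher in delta cells than in both other classes at 5 weeks, by any amount. Of all genes compared there, 45.4% were higher than in beta cells and 63.5% higher than in alpha cells. Of the 9, only Hspb1 and Bag3 were 2-fold above both at 5 weeks, and Dnaja1 had a log2 ratio of 0.11 over beta cells. The libraries differ in genotype, time, sex-linked RNA, depth and preparation, and these cannot be told apart.

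The genes below both classes formed a shorter list. Skap1, a signalling adaptor, had 1 UMI in delta cells, 630 in beta cells and 120 in alpha cells, with log2 ratios of -5.03 (-10.34 to -2.55) and -4.54 (-9.86 to -2.03). In the 63 delta cells with at least 1000 UMIs it had 0 UMIs, and with the floor of 3 UMIs the ratio over alpha cells of that depth was -0.73, short of 2-fold. Of the 16 genes named here for low ratios, 8 had 0 UMIs in those 63 cells. Dapl1 had 2 UMIs, Maob, a monoamine oxidase, 3, and the kinetochore gene Spc25 7. Tmsb15l and Tmsb15b2, similar thymosin genes whose reads may be shared, had 2 and 4 UMIs in delta cells and log2 ratios over alpha cells of -5.17 and -4.65.

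Wnt4, a Wnt ligand expressed in mature islet cells, was better measured, with 18 UMIs in delta cells and 66.0, 440 and 429 CPM. Its log2 ratios were -2.74 (-3.49 to -2.07) and -2.70 (-3.46 to -2.03). The amino acid transporter genes Slc38a4 and Slc7a8 completed the 10 lowest, with 5 and 4 UMIs in delta cells.

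Against alpha cells alone the lowest gene was Ttr, which encodes the thyroid hormone and retinol-binding protein carrier transthyretin. It stood at 906 CPM in delta cells, 3068 in beta cells and 64251 in alpha cells, a log2 ratio of -6.15 (-6.33 to -5.97) over alpha cells. Higd1a, a hypoxia-inducible mitochondrial gene, had 0 UMIs in delta cells and 868 in alpha cells, a log2 ratio of -5.81 with the floor of 3 UMIs and an upper limit of the counting interval of -5.51. Of 10 alpha-cell markers compared 7 were lower in delta than in alpha cells, while Etv1, Gc and Tmem27 were within 2-fold.

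Against beta cells alone the lowest genes were Ucn3, the urocortin 3 peptide of mature beta cells, and Fmo1, Skap1, Kdm2b and Gad1. Ucn3 had 3 UMIs in delta cells and 2193 in beta cells, a log2 ratio of -5.25 (-7.52 to -3.70). The rest had 1 UMI each in delta cells. Of 13 beta-cell markers 12 were lower in delta than in beta cells, Nnat being the exception.

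Because Ins2 was found in every delta cell, the UMIs of beta-cell genes were set against the number that would be present if all Ins2 and Gcg in delta cells had come from beta and alpha cells of this library. On that assumption, which sets an upper limit, beta cells would have supplied 9.67% and alpha cells 0.903% of delta-cell UMIs. Ins1 reached 5600 UMIs where 6026 were expected. Ero1lb with 16 UMIs, G6pc2 with 23, Slc2a2 with 11, Prss53 with 7, Trpm5 with 5 and Ucn3 with 3 had counting intervals that contained their expected number.

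A second set of beta-cell genes exceeded it. Nnat, an imprinted gene needed for insulin release, had 29 UMIs, a ratio to the expected number of 40.4 (27.1 to 58.1). Hadh, a fatty acid dehydrogenase that restrains insulin release, had 93 UMIs and a ratio of 9.10 (7.35 to 11.15), and Pdx1 one of 9.03 (4.80 to 15.4). Iapp had 22569 UMIs where 3407 were expected, a ratio of 6.62, and Mafa, Pcsk1 and Ppp1r1a had ratios of 2.56, 2.93 and 4.31.

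**Figure D4:**
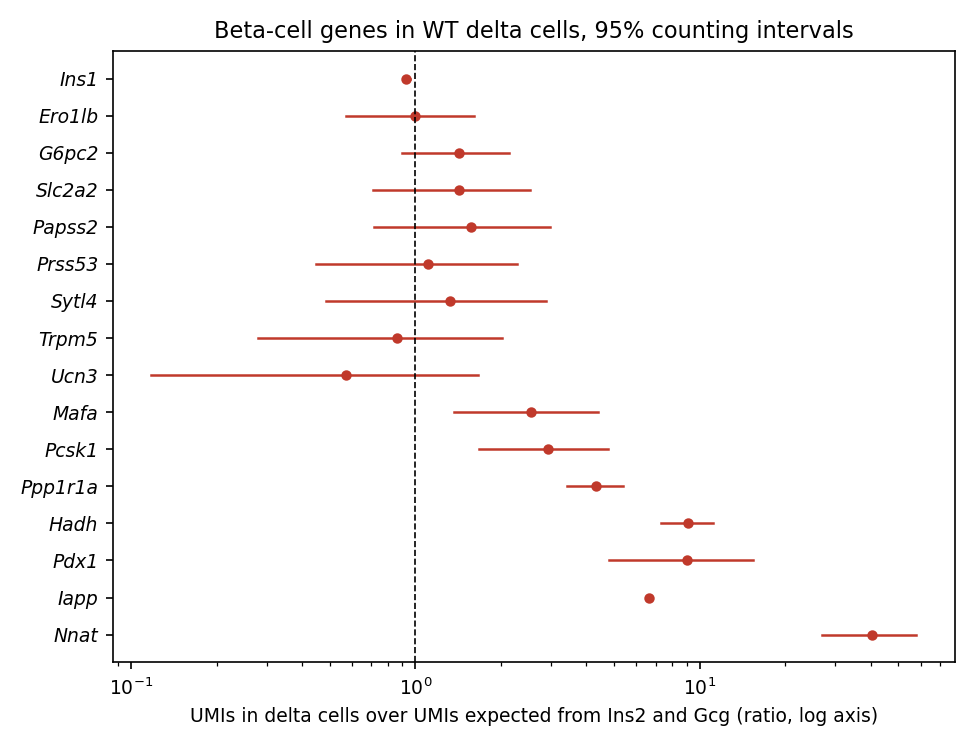
Ratio of the UMIs found in WT delta cells to the UMIs expected if all Ins2 and Gcg there came from beta and alpha cells (x axis, log), for 16 beta-cell genes (y axis), with 95% counting intervals; the dashed line marks a ratio of 1. Ero1lb, G6pc2, Slc2a2, Papss2, Prss53, Sytl4, Trpm5 and Ucn3 lie on the line within their intervals, and Hadh, Pdx1, Iapp and Nnat lie above 6.

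Marker genes of other tissue cells were near 0 in delta cells. The 8 endothelial markers gave 7 UMIs in all 566 cells, the 10 macrophage markers 26, the 8 mesenchymal markers 1, the 6 lymphocyte markers 4 and the 2 glial markers 6. The 5 ductal markers in the table gave 35 UMIs, or 128 CPM, against 29.3 in beta cells and 119 in alpha cells. Acinar genes were the exception, at 21787 CPM in delta cells, 15466 in beta cells and 18732 in alpha cells, and all 10 lay within 2-fold of both classes. With hormone UMIs in the total all 10 were higher than in beta cells, with a median log2 ratio of 1.58, and 0 were higher than in alpha cells.

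Within the delta cells most genes had a ratio of variance to mean near 1 after thinning. At a mean near 0.05 UMIs most cells hold 0 UMIs of a gene, so such a ratio does not show that the gene varied little. With every cell thinned to 500 UMIs and 0 cells left out, 1012 genes reached a mean of 0.05 UMIs, the median ratio of variance to mean was 1.01, where counting error alone gives about 1, and 49 genes had a ratio over 1.5. The 10 highest were Ins2 (10.1), Ctrb1 (10.1), Sst (8.07), Hspb1 (7.07), Pyy (6.88), Ppy (6.54), Prss2 (4.22), Iapp (4.18), Try4 (3.97) and Pnlip (3.36). The limits of the selection set part of the spread of Ins2, Sst and Ppy. The others were the hormones Pyy and Iapp, 4 acinar enzymes and Hspb1. Hspb1 was found in 59.4% of delta cells, 6.40% of beta cells and 19.9% of alpha cells at 500 UMIs (64.1%, 14.3% and 25.3% before thinning).

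The marker Hhex had a ratio of 1.10, Ly6h of 1.01 and Fam159b of 1.03, so at this depth their spread over cells was not distinguishable from sampling. Rbp4 had a ratio of 1.89.

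The delta cells were further divided by their Sst share, as a description of the range that the rule left. There were 70 cells at 5% to 10%, 176 at 10% to 15%, 215 at 15% to 20% and 105 above, with median UMIs per cell of 706, 629.5, 604 and 602. From the lowest to the highest range Rbp4 stood at 6902, 8952, 10966 and 12842 CPM. The counting intervals, which leave out the spread between cells, were 6142 to 7730 in the lowest and 11774 to 13980 in the highest. Ly6h stood at 508 (318 to 769) in the lowest and 1253 (936 to 1643) in the highest.

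Hhex did not follow, with 346 (194 to 571) CPM in the lowest range and 289 (149 to 505) in the highest. Ins2 took 7.0%, 4.58%, 3.28% and 3.12% of UMIs over the ranges, and Ctrb1 was at 11357 CPM in the lowest and 4361 in the highest. Hspa1a was at 4478 and 2698 CPM and Ttr at 1454 and 651. Ppy took 1.30%, 1.61%, 1.57% and 1.10%, with no such order. The ranges divide the cells by a value the selection used, the hormone shares are parts of the total that Sst enters, and the part of Ins2 and acinar RNA in the lower Rbp4 was not tested.

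Finally, the same rule and the same contrast were applied within the mutant libraries, which took no part in choosing the 98 and 36 genes. These genes were all counted there with no minimum level. The shares of all genes compared cover only genes with a mean of at least 50 CPM in the same library. At 5 weeks 97 of the 98 genes were again higher in delta than in alpha cells and 96 higher than in beta cells, where 63.5% and 45.4% of all genes compared were. Of the 98, 56 were 2-fold above both, where 2.37% of all genes compared were. Of the 36 genes, 31 were lower than in alpha cells and 34 lower than in beta cells, where 36.5% and 54.6% of all genes compared were, and 18 were 2-fold below both, where 0.664% of all genes compared were. In the 1-week library, with 19 delta cells, 89 of the 98 were higher than in alpha cells and 86 higher than in beta cells (65.1% and 44.9% of all genes compared), and 29 and 34 of the 36 were lower (34.9% and 55.1%). There 62 of the 98 and 17 of the 36 passed both ratios, against 4.15% and 2.67% of all genes compared. A class with 0 UMIs was set to 3 UMIs there too, which can place a gene higher with no delta-cell UMI. Krtap17-1, at 0 CPM in delta cells, had 1-week log2 ratios of 4.84 over beta and 4.09 over alpha cells. Nr4a1, also at 0 CPM in delta cells, had ratios of 3.84 and 3.51. Both are among the 62, so the 1-week counts are partly set by the floor.

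Delta cells of the 3 libraries had similar levels of the markers. Hhex stood at 326 CPM in WT delta cells, 465 at 1 week and 445 at 5 weeks, Rbp4 at 9942, 7468 and 9134, and Fam159b at 1041, 1285 and 1089. Slc30a8 stood at 99.0 in WT delta cells, at 0 UMIs at 1 week and at 19.9 at 5 weeks. Ly6h varied more, at 884, 341 and 640 CPM.

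The largest ratios were smaller at 5 weeks than in WT. Hhex had a log2 ratio over alpha cells of 8.84 in WT and 4.05 at 5 weeks, and Ly6h of 9.28 and 4.10. Sst itself stood at 794 CPM in WT alpha cells and 9448 in those at 5 weeks, and Hhex at 0.711 and 26.8. Doublets had been removed by the authors from the WT library alone, and the part of this in the 5-week values was not tested.

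**Figure D5:**
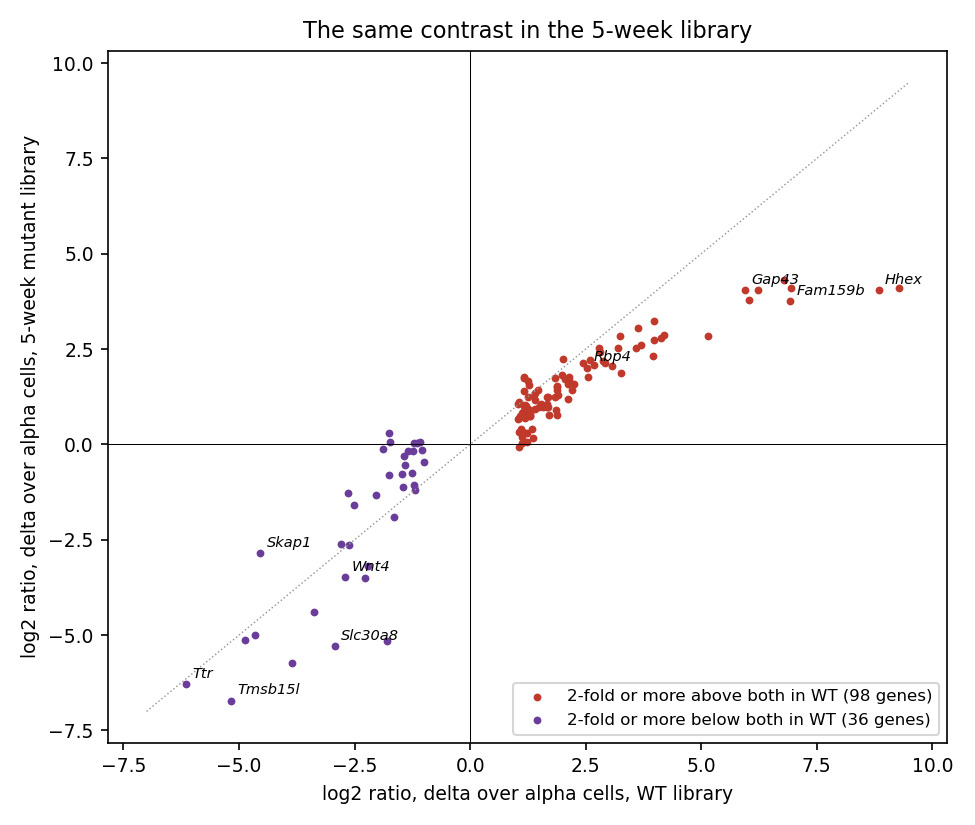
Log2 ratio of delta over alpha cells in the WT library (x axis) and in the 5-week mutant library (y axis) for the 98 genes above both classes in WT (red) and the 36 genes below both (purple); the dotted line marks equal ratios. At 5 weeks 97 of the red genes lie above 0 and the largest WT ratios, such as that of Hhex, are near 4.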

How the data were processed

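The deposited tables, 1 per library, hold UMI counts with no normalization, for each gene in each cell. Per the submitters' processing notes the authors used bcl2fastq 2.17.1.14, Cell Ranger 3.1 with mm10, and Seurat 3.1.4. From the WT cells alone the authors took out likely doublets (cells with high levels of a pair of hormones, then DoubletFinder) and reduced the library to 12000 cells. No doublet caller was run here and no further filter was set on cells.

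The members, gene lists and thresholds were chosen with earlier results of these data known. UMIs were summed per class and scaled to 1000000 UMIs of genes other than 7 hormones. Intervals of 95% are exact Poisson for levels, exact conditional binomial for ratios and Clopper-Pearson for shares. They cover counting error only, and no test was possible with 1 library per condition. On simulated counts 96.2% of intervals of 158 changed genes of 2763 compared held the true delta over beta ratio. Those counts were drawn with counting error alone, as the intervals assume, so this does not cover spread between cells. The 20 genes furthest above and 10 furthest below both classes, the 5 highest and lowest against each class, the given markers, the listed genes and the 10 most variable genes were named. Other genes named were chosen after their values were seen. A few listed genes are counted but not reported here. Alternatives changed the total, the minimum level, the cell limits, the depth and the averaging, and subtracted admixed RNA. Those restricting beta cells to under 1000 UMIs and alpha cells to Ppy under 5% were added after seeing the data.

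Symbols were matched to RefSeq on GRCm38.p6, which also gave positions and upstream sequence. The genome supplied with the files was of an older build and was not used. Python 3.11.15, numpy 2.4.6, scipy 1.17.1, pandas 2.3.3 and matplotlib 3.10.9 were used.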

Additional observations from a re-analysis of the deposited data

How the results depend on the processing

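Counts of genes 2-fold higher and lower than in beta cells, higher and lower than in alpha cells, above both and below both were 219, 280, 269, 66, 98 and 36. They moved with the minimum level, to 631, 577, 860, 192, 317 and 123 at 20 CPM, to 106, 132, 114, 33, 48 and 17 at 100 CPM, and to 4903, 1348, 3392, 976, 3279 and 492 with no minimum and 0.5 UMI added, which changes both choices at once. With all UMIs in the total, 763 were higher and 28 lower than in beta cells, 27 lower than in alpha cells and 10 below both, and 57 of the 98 genes above both remained. With centred ratios 163 were higher than in alpha cells. With cells of at least 1000 UMIs, 63 delta cells were left, 526 genes were higher than in beta cells, 724 higher and 150 lower than in alpha cells, 288 above both and 132 below both, and 73 of the 98 remained. There the log2 ratio of Kdm2b over alpha cells, -2.09 in all cells, turned to 0.0095 on 1 UMI in delta cells, and that of Skap1 was -0.73 on 0 UMIs, set to 3. Against beta cells under 1000 UMIs only, the log2 ratio of Rbp4 was 4.29, of Ly6h 5.71, of Gap43 3.70 on 0 UMIs in beta cells, set to 3, and of Mef2c 3.55, and 73 of the 98 genes remained. The other alternatives moved no count by over 1.5 times. Of 836 ratios of named genes under alternatives that could move them, 745 stayed within the counting interval of the reported ratio, 90 left it without turning from a 2-fold difference and 1 turned. Against beta cells under 1000 UMIs only, 18 of 38 left it. With cells of at least 1000 UMIs 31 of 76 left it and 1 turned, and with all UMIs in the total 26 of 76 left it. No paired analysis was possible because each condition had 1 library and the labels give no replicate numbers, and for the same reason no replicate could be left out. Depth limited the genes with few UMIs, receptors and most transcription factors among them.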
